A study of Arabidopsis thaliana with 8 samples.

Results

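The nuclear genes for the light-harvesting antenna and the small subunits of both photosystems were followed through 4 organs of Arabidopsis thaliana, in clf-28 mutants and in wild type (wt). The 42 genes were taken by name, with earlier results of these data known: 14 LHCB and 6 LHCA genes of the antennae, 12 PSA genes of photosystem I and 10 PSB genes of photosystem II. They are 42 of 34759 loci in the deposited table, and 31 of them had a usable value in all 8 libraries. Both genotypes were of the Col-0 ecotype. The clf-28 allele carries an insertion in CURLY LEAF (CLF), which encodes a histone methyltransferase of the Polycomb system. There was 1 library for each genotype in each organ: clf-28 roots and wt roots, clf-28 leaves and wt leaves, clf-28 flowers and wt flowers, clf-28 siliques and wt siliques. Roots and leaves came from plants 2 weeks old on MS plates, where the leaves libraries are the whole aerial part. Flowers and siliques came from plants 5 weeks old in soil. All plants were kept in long days at 22 °C. Siliques are the seed pods, so these libraries mix pod wall and developing seeds. No group has a replicate, the number of plants behind a library is not given in the sources used here, and organ, plant age and substrate cannot be told apart between the seedling and the reproductive organs.

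Light-harvesting proteins bind chlorophyll and pass the absorbed energy to the reaction centres. LHCB1 to LHCB3 form the trimeric main antenna of photosystem II, LHCB4 to LHCB6 are its monomeric minor antennae, and LHCA1 to LHCA4 form the antenna belt of photosystem I. The core of each photosystem is encoded in the chloroplast, while the PSA and PSB genes described here encode subunits that are made in the cytosol and imported. In green tissue these genes are among the most strongly transcribed of the nucleus, and light, the circadian clock and the state of the chloroplast control them.

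Sequences before the start of 5 genes are shown, because their values stand apart from those of their nearest copies: LHCB4.3 (AT2G40100), whose organ pattern differed from that of LHCB4.1 (AT5G01530) and LHCB4.2 (AT3G08940), and LHCB1.4 (AT2G34430), whose ratio in flowers differed in size from that of its neighbour LHCB1.5 (AT2G34420). Each is the 250 bases before the RefSeq gene start on TAIR10.1, 5′ to 3′ on the strand of the gene. Capitals mark matches, on either strand, to the G-box (CACGTG), the I-box (GATAAG), a binding site of the clock factor CCA1 (AAAAATCT), the evening element (AAAATATCT) and the TATA box (TATAAA). The windows are chr5:208616-208865 on the plus strand for LHCB4.1, chr3:2717307-2717556 on the plus strand for LHCB4.2, chr2:16745378-16745627 on the plus strand for LHCB4.3, chr2:14524357-14524606 on the plus strand for LHCB1.4 and chr2:14523569-14523818 on the minus strand for LHCB1.5.
LHCB4.1: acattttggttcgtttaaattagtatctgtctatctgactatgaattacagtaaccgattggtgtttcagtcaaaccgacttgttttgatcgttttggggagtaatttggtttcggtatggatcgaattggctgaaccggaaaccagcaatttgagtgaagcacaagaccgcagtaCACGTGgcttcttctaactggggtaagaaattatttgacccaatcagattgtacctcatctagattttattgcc
LHCB4.2: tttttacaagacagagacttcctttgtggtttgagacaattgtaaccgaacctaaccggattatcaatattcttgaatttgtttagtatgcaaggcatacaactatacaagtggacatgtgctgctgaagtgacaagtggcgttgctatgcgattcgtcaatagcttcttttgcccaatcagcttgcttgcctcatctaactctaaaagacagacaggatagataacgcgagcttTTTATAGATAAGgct
LHCB4.3: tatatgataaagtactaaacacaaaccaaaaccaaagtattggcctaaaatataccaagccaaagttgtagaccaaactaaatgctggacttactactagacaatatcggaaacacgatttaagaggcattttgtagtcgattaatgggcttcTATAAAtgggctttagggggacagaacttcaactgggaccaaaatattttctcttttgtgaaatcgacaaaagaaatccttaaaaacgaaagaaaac
LHCB1.4: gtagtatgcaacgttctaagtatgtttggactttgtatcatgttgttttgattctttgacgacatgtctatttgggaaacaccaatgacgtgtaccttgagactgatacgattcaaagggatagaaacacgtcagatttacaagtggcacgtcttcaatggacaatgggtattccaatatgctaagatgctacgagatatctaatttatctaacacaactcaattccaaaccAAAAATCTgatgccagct
LHCB1.5: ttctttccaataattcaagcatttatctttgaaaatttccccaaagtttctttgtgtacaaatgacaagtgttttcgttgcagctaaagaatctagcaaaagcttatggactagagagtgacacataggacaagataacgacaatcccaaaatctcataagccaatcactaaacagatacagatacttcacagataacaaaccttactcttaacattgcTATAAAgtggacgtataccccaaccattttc

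LHCB4.1 held a G-box, LHCB4.2 an I-box beside a TATA box on the other strand, and LHCB4.3 a TATA box. LHCB1.4 and LHCB1.5 lie head to head on chromosome 2 with 1038 bases between their starts. LHCB1.4 held a CCA1 site and LHCB1.5 a TATA box. Over the 42 genes, the G-box stood in 8 windows (19.0%), against 6.49% of the windows of the 27443 protein-coding nuclear genes that have one. The I-box stood in 9 (21.4%), against 12.3% of all windows, and the CCA1 site in 5 (11.9%), against 6.69%. The evening element stood in 1 (2.38%), against 2.36%, and the TATA box in 19 (45.2%), against 47.3%. The G-box genes were LHCB2.3, LHCB4.1, LHCB6, LHCA4, PSAE2, PSAH2, PSBQ1 and PSBQ2. In 10 genes none of these letters was found. In PSAO a CCA1 site overlapped a TATA box, the 1 overlap between different motifs. A match describes the letters in this window and is not a measured binding site.

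Values are FPKM as deposited, fragment counts scaled by transcript length and by library size. Their sum over all loci was 656178 to 715548 per library, and 18050 to 20711 loci reached 1 FPKM. Read counts were not used here, so depth is unknown, and the authors' own interval is the precision of a value. For the 42 genes its lower bound was 0 in 309 of 317 usable values and its upper bound was, in the median, 2.86 times the FPKM. The intervals of clf-28 and wt were separate in 0 of 156 pairs of these genes, where the share of all loci with separate intervals was 0.0355% for the root pair, 0.054% for leaves, 0.0191% for flowers and 0.201% for the silique pair. In 11 genes the table flags some libraries as holding too many reads and lists them at 0. These entries were left out. They are both leaves libraries for LHCB1.1, LHCB1.2, LHCB1.3, LHCB1.5, LHCB3, LHCB5 and LHCA4, wt leaves alone for LHCB1.4, LHCA1, LHCA3 and PSBO1, and also wt siliques for LHCB1.3. CLF itself stood at 7.84 FPKM in clf-28 roots and 17.2 in wt roots, 5.5 in clf-28 leaves and 6.57 in wt leaves, 14.7 in clf-28 flowers and 9.99 in wt flowers, and 15.1 in clf-28 siliques and 6.53 in wt siliques. A value over the whole gene does not show an insertion, so these values do not check the genotype labels.

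The organ labels were set against marker genes. The root list (IRT1, FRO2 and PHT1;1, transporters and a reductase of the root surface) summed to 309 FPKM in clf-28 roots and 638 in wt roots, and to at most 20.4 in any other library. The pollen coat gene GRP17 stood at 333 FPKM in clf-28 flowers and 563 in wt flowers. Elsewhere it was at most 6.37, in clf-28 siliques, against 0.006 in wt siliques. Roots held some green tissue transcripts: 5 genes of Rubisco and its activase summed to 65.0 FPKM in clf-28 roots and 129 in wt roots, against at least 4639 over the usable ones in each leaf, flower and silique library. The silique pair differed in them too. RBCS1B stood at 376 FPKM in clf-28 siliques and 1466 in wt siliques, and RBCS2B at 485 in clf-28 and 2082 in wt. RBCS3B stood at 1338 in clf-28 siliques and 5053 in wt siliques, and RCA at 679 in clf-28 and 2224 in wt. RBCS1A was flagged in wt siliques. In leaves the usable 3 summed to 4639 FPKM in clf-28 and 7294 in wt. In flowers all 5 summed to 11145 in clf-28 and 11027 in wt. Seed storage genes stood apart in 2 libraries. Their 8 genes summed to 0.163 FPKM in clf-28 roots and 44.5 in wt roots. In clf-28 siliques 3 usable genes summed to 14206 FPKM with the other 5 flagged as too many reads, while all 8 together summed to 4.0 FPKM in wt siliques. The difference over organs is therefore also given without roots and, separately, without siliques.

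Of the 31 genes with 8 usable values, 30 were highest in leaves and lowest in roots in both genotypes, with flowers and siliques between, and LHCB4.3 was highest in siliques. Over the 31, the summed level was 171 FPKM in clf-28 roots and 453 in wt roots, 53917 in clf-28 leaves and 64531 in wt leaves, 15079 in clf-28 flowers and 16112 in wt flowers, and 12789 in clf-28 siliques and 31614 in wt siliques. As a share of all FPKM of the library this was 0.025% in clf-28 roots and 0.068% in wt roots, 8.09% in clf-28 leaves and 9.83% in wt leaves, 2.16% in clf-28 flowers and 2.32% in wt flowers, and 1.83% in clf-28 siliques and 4.42% in wt siliques. Relative to wt, the clf-28 sum was thus lowest in roots and siliques and close to it in flowers. The tissue is bulk, so fewer green cells and less RNA per green cell cannot be told apart. PSBR, a small subunit of photosystem II, had the highest level of the 31 genes in 6 libraries, and PSAO, a subunit of photosystem I, in the other 2, wt leaves and wt siliques. LHCA6, which in chloroplasts helps to join photosystem I to the NDH complex, was lowest in 6 libraries, and LHCB4.3 in both leaves libraries.

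**Figure D1:**
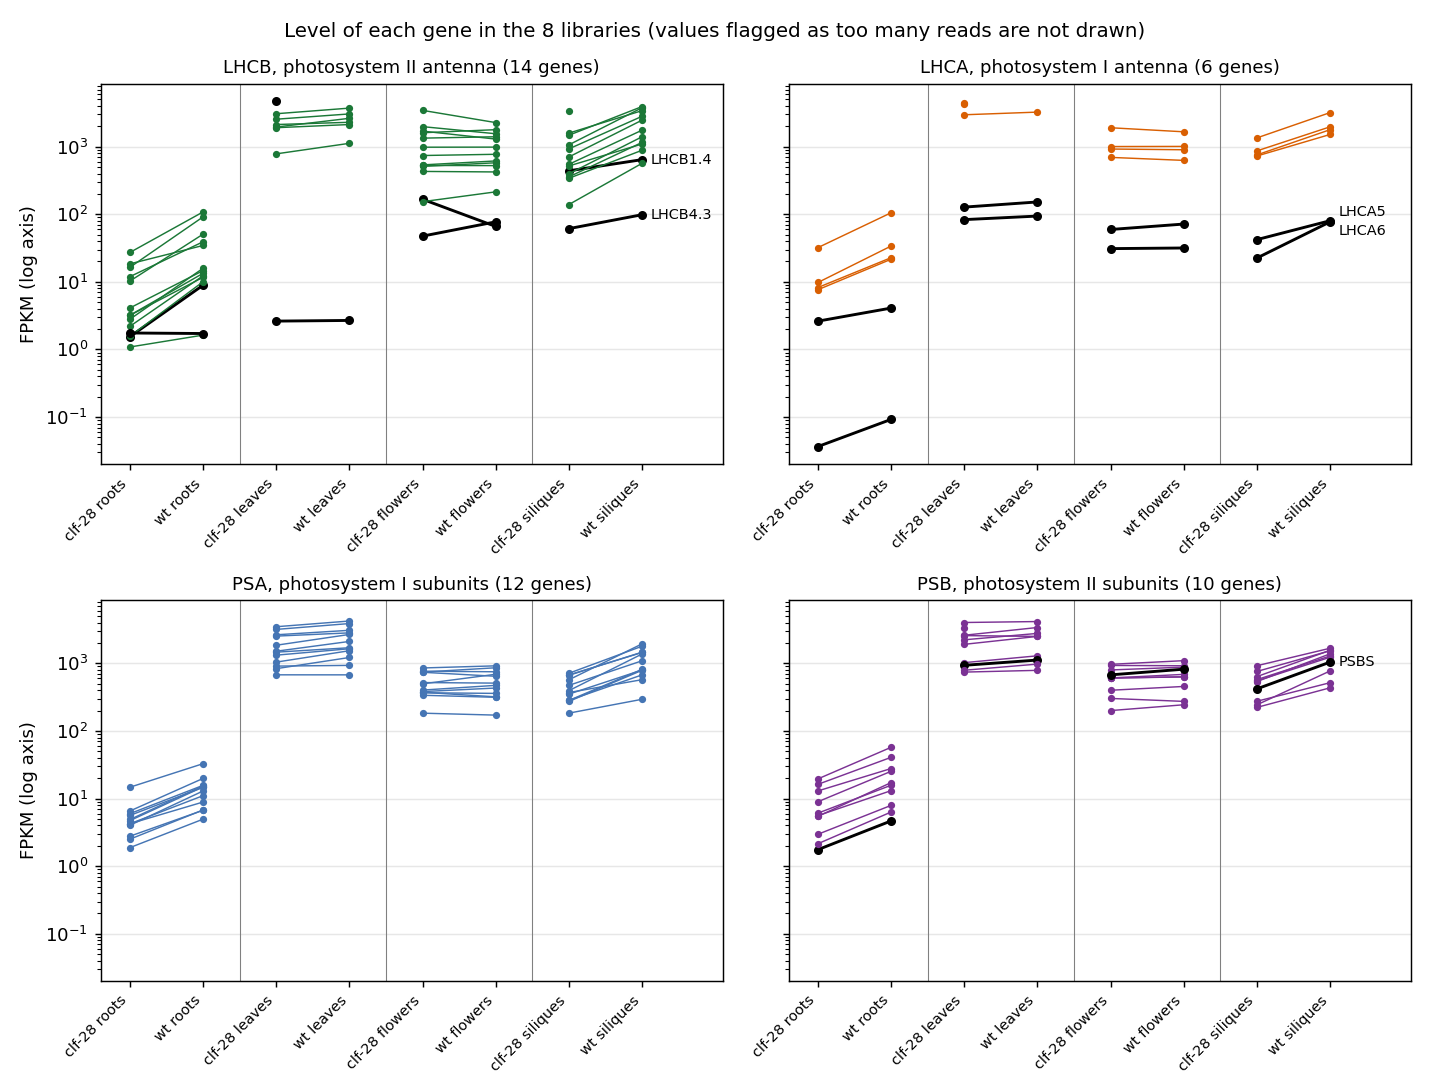
FPKM of each gene (log axis) in the 8 libraries, clf-28 left of wt in each organ, with a line joining the pair; values flagged as too many reads are not drawn, and 5 named genes are in black. Nearly all pairs slope upward to wt in roots and siliques and run close to level in leaves and flowers, while LHCB4.3 stays under 3 FPKM in leaves.

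Organs were compared with limma on log2(FPKM + 1), with genotype in the fit and 2 libraries per organ. In roots against leaves, 30 of 31 genes were called lower at an adjusted p under 0.05 (Benjamini-Hochberg over all 24078 loci tested), where 14.8% of all loci were, and 0 higher, where 34.7% were. The median log2 difference was -7.60, against 0.29 for all loci. Of the 31, the trimer genes LHCB2.1 and LHCB2.2 had the largest differences on this scale of FPKM + 1. With flagged values set to missing, which drops wt leaves, LHCB1.4 lay beyond them, at -10.08 (SE 1.08, adjusted p = 0.00399 in limma). LHCB2.2 stood at 1.57 FPKM in clf-28 roots and 10.1 in wt roots, against 2547 in clf-28 leaves and 3049.6 in wt leaves, a log2 difference of -9.03 (SE 0.58, adjusted p = 0.00045 in limma). Family medians were -8.11 for LHCB (7 genes), -6.39 for LHCA (3 genes), -7.62 for PSA (12 genes) and -7.52 for PSB (9 genes). The LHCA median was the value of LHCA6, which stood at 0.037 FPKM in clf-28 roots and 0.092 in wt roots. So near 0 the added 1 limits the difference, which ran from -9.09 to -4.21 over the 11 alternatives. With flagged values set to missing, LHCA1 stood at -8.59 and LHCA3 at -8.31. LHCA5, another link of photosystem I to the NDH complex, had the smallest called difference, at -5.03 (SE 0.19, adjusted p = 0.0002 in limma). LHCB4.3 was the gene not called (-0.42, SE 0.24, adjusted p = 0.214 in limma). Its values in both organs were low, so the added 1 limits this difference too. It ran from -0.82 to -0.18 over the 11 alternatives. With quantile scaling LHCB4.3 was called lower (adjusted p = 0.045 in limma), the 1 such call among them.

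In flowers against leaves, 28 of 31 genes were called lower, where 8.38% of all loci were, and 1 was called higher, where 34.6% were. The median log2 difference was -1.93, against 0.36 for all loci. The photosystem II subunit PSBO2 stood at 200.5 FPKM in clf-28 flowers and 244 in wt flowers, against 744 in clf-28 leaves and 789 in wt leaves (log2 difference -1.79, SE 0.30, adjusted p = 0.0103 in limma). The number of calls rested on single libraries: it was 7 without clf-28 flowers, 2 without wt leaves, and 0 without clf-28 leaves or without wt flowers, with 30 of 31 genes still below 0 each time. PSBS and LHCA6 were the genes not called. PSBS, the photosystem II subunit that triggers the harmless release of excess light energy, stood at 677 FPKM in clf-28 flowers and 821 in wt flowers, against 937 in clf-28 leaves and 1121 in wt leaves (log2 difference -0.46, SE 0.33, adjusted p = 0.309 in limma). Its flower values thus lay closer to its leaf values than those of the other PSB genes with 8 usable values. LHCA6 stood at -1.47 (SE 0.46, adjusted p = 0.0565 in limma).

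In siliques against leaves, 17 of 31 genes were called lower, where 9.74% of all loci were, and 1 higher, where 19.8% were. The median log2 difference was -1.54, against 0.15 for all loci. The 17 were 4 LHCB, 1 LHCA, 7 PSA and 5 PSB genes. At an unadjusted p under 0.05 there were 28 lower and 1 higher, where 3561 of the 24078 loci were lower and 6867 higher. LHCB2.1 stood at 548 FPKM in clf-28 siliques and 1753 in wt siliques, against 3070.1 in clf-28 leaves and 3716 in wt leaves, and was not called (-1.78, SE 0.57, adjusted p = 0.0749 in limma). No call of a lower level was left without either leaves library, 2 without clf-28 siliques, and 13 without wt siliques. In siliques against flowers, 0 of 31 genes were called, where 6.16% of all loci were called higher and 16.5% lower in limma. At an unadjusted p under 0.05, 0 of 31 passed, where 2493 of the 24078 loci were higher and 6829 lower. The median there was 0.38, against -0.18 for all loci, and it turned to -0.0491 without wt flowers.

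LHCB4.3, the third copy of the minor antenna CP29, ran the other way. It stood at 47.5 FPKM in clf-28 flowers and 77.3 in wt flowers, at 61.3 in clf-28 siliques and 98.4 in wt siliques, and at 2.63 in clf-28 leaves and 2.69 in wt leaves. Roots were low as well, with 1.75 FPKM in clf-28 and 1.72 in wt. All 4 values of the reproductive organs lay above the 4 seedling values. The log2 difference to leaves was 4.07 in flowers (SE 0.24, adjusted p = 0.000773 in limma) and 4.43 in siliques (SE 0.24, adjusted p = 0.00136 in limma). Both calls were made in all 11 alternatives run. LHCB4.1 and LHCB4.2, the main copies, were called lower than in leaves in both organs, with log2 differences of -2.07 and -2.24 in flowers (adjusted p = 0.0105 and 0.0198 in limma) and -1.55 and -1.87 in siliques (adjusted p = 0.0309 and 0.0424 in limma). As a share of the 3 copies, LHCB4.3 made up 4.73% in clf-28 flowers and 7.55% in wt flowers, 6.66% in clf-28 siliques and 4.74% in wt siliques, and 0.065% in clf-28 leaves and 0.061% in wt leaves. In roots, where all 3 copies were low, the share was 7.48% in clf-28 and 3.59% in wt, so leaves alone stood apart in this share. The coding sequence of LHCB4.3 is 65.7% and 66.9% identical to those of LHCB4.1 and LHCB4.2, with no shared run over 21 bases. LHCB4.1 and LHCB4.2 are 81.1% identical to each other, with a longest shared run of 23 bases. The gene lies on chromosome 2, and its deposited locus spans 16745653 to 16747400 on TAIR10 and overlaps no other RefSeq gene.

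**Figure D2:**
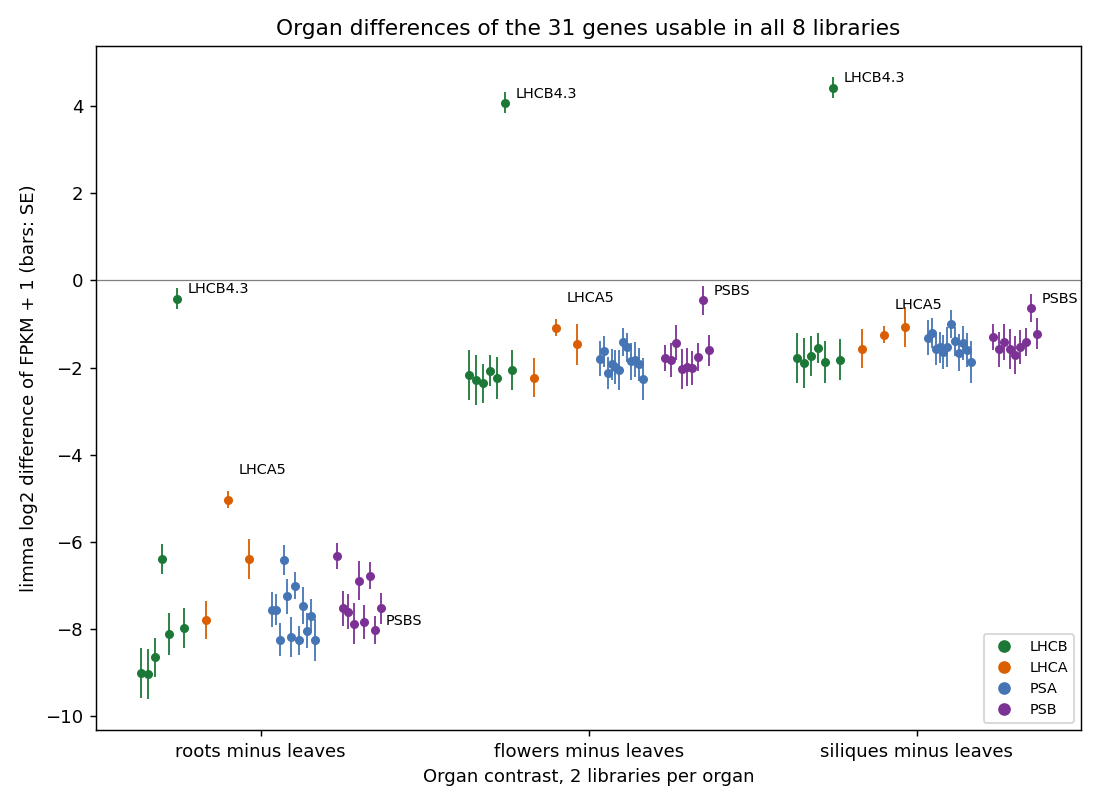
Log2 differences in FPKM + 1 to leaves (points, limma) with their standard errors (bars) for the 31 genes usable in all 8 libraries, in roots, flowers and siliques. LHCB4.3 is at -0.42 in roots, at 4.07 in flowers and 4.43 in siliques, while the other genes lie below 0.

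In roots and siliques most of the genes were at least 2-fold lower in clf-28 than in wt, and in leaves and flowers none were. The count was 17 of 41 in siliques with quantile scaling and 22 of 41 in roots with a pseudocount of 5. Within an organ there is 1 library per genotype, so ratios are described by size, with no test: a log2 ratio of (FPKM + 1) of -1 or less, or 1 or more, counts as 2-fold. A gene was measured where both libraries were usable and at least 1 of them had 1 FPKM. In roots 36 of 41 measured genes were at least 2-fold lower, where 1.22% of all loci were, and 0 were 2-fold higher, where 5.55% were. The median log2 ratio was -1.39, against -0.09 for all loci, and 40 of 41 genes were below 0, where 62.4% of loci were. In siliques 33 of 41 were at least 2-fold lower, where 8.0% of all loci were, and 0 were higher, where 11.4% were. The median was -1.24, against -0.01 for all loci, and 41 of 41 were below 0, where 51.0% of loci were. In leaves 0 of 31 were 2-fold lower or higher, where 1.43% and 5.45% of all loci were, with a median of -0.26 and 29 below 0, where 52.3% of loci were. In flowers 0 of 42 were 2-fold lower, where 1.04% of all loci were, and 1 was 2-fold higher, where 1.51% were, with a median of -0.04 and 24 below 0, where 48.6% of loci were.

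Of the 30 genes measured in all 4 organs, 17 were below wt in each organ, where 17.4% of all such loci were. At least 2-fold lower in both roots and siliques were 21, where 0.351% of loci were. The ratio was lower in siliques than in leaves in 30 of 30 genes, where 51.1% of loci showed that order, and lower in siliques than in flowers in 29, where 54.4% did. It was lower in roots than in leaves in 28, where 61.6% of loci were, and lower in roots than in flowers in 28, where 65.7% were. Between roots and siliques there was no such order: 14 of 30 were lower in roots, where 58.3% of loci were. The root pair also differed in green tissue, root and seed storage markers, as given above. The silique pair differed in green tissue, pollen coat and seed storage transcripts. The part of these differences in the ratios was not tested.

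**Figure D3:**
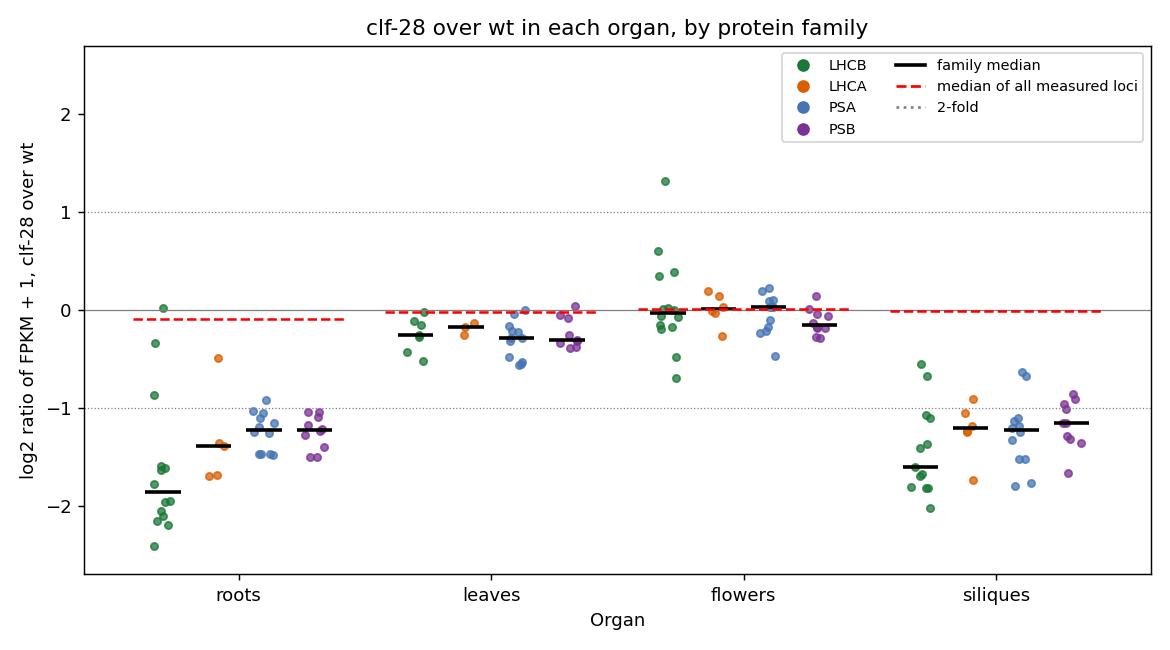
Log2 ratio of FPKM + 1, clf-28 over wt, for each measured gene (points) by family in each organ, with family medians (black), the median of all measured loci (red dashes) and the 2-fold lines (dotted). Points lie mostly below -1 in roots and siliques and around 0 in flowers.

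The lowest ratios in roots were those of trimer genes, although LHCB2.3 (AT3G27690), of the same group, had the second mildest root ratio of all, with 1.09 FPKM in clf-28 and 1.63 in wt (-0.33). LHCB1.5 stood at 16.4 FPKM in clf-28 roots and 91.5 in wt roots (log2 ratio -2.41), and LHCB3 (AT5G54270), a subunit of the moderately bound trimer, at 10.3 in clf-28 roots and 50.8 in wt roots (-2.20). LHCB2.2 had 1.57 FPKM in clf-28 roots and 10.1 in wt roots (-2.11). The family median was -1.86 in roots over 14 LHCB genes and -1.60 in siliques over 13. In siliques the lowest ratio was that of LHCB2.3, with 139 FPKM in clf-28 and 567 in wt (-2.02), followed by LHCB3, with 1064 in clf-28 and 3767 in wt (-1.82), and LHCB2.2, with 397 in clf-28 and 1399.7 in wt (-1.81). In flowers LHCB2.3 had 153 FPKM in clf-28 and 214 in wt (-0.48), the second lowest ratio of the 42 genes there, and in leaves 783 in clf-28 and 1120.4 in wt (-0.52). The other 2 were closer in flowers: LHCB3 had 1607 FPKM in clf-28 and 1783 in wt (-0.15), and LHCB2.2 had 537 in clf-28 and 615 in wt (-0.19). In leaves LHCB2.2 had 2547 FPKM in clf-28 and 3049.6 in wt (-0.26).

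LHCB1.4 was the 1 gene at least 2-fold higher in clf-28 in any organ. It stood at 166 FPKM in clf-28 flowers and 66.0 in wt flowers (log2 ratio 1.32), but at 1.55 in clf-28 roots and 8.94 in wt roots (-1.96) and at 439 in clf-28 siliques and 643 in wt siliques (-0.55). In leaves it had 4749.7 FPKM in clf-28 and was flagged as too many reads in wt. Its neighbour LHCB1.5 had 1977 FPKM in clf-28 flowers and 1552 in wt flowers (0.35). The other LHCB1 genes measured in flowers lay between -0.0042 (LHCB1.2) and 0.60 (LHCB1.3). LHCB1.3, the most abundant of the 5, had 27.3 FPKM in clf-28 roots and 108 in wt roots, and 3441 in clf-28 flowers and 2269 in wt flowers. LHCB1.4 made up 2.02% of the LHCB1 sum in clf-28 flowers and 1.07% in wt flowers. LHCB1.1, LHCB1.2 and LHCB1.3 lie side by side on chromosome 1 between 10472280 and 10479114 (TAIR10.1). Their coding sequences are 95.6% to 96.4% identical with shared runs of up to 119 bases, so the split of reads among them is uncertain. LHCB1.4 and LHCB1.5 are 91.4% identical with a shared run of 122 bases, so the same holds for them.

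Among the minor antennae, LHCB5 (CP26, AT4G10340) stood at 11.9 FPKM in clf-28 roots and 39.2 in wt roots (-1.63) and at 927 in clf-28 siliques and 2812 in wt siliques (-1.60). LHCB6 (CP24, AT1G15820) had 357 FPKM in clf-28 siliques and 1156 in wt siliques (-1.69). LHCB4.1 had milder ratios, with 18.5 FPKM in clf-28 roots and 34.6 in wt roots (-0.87) and 518 in clf-28 siliques and 1094 in wt siliques (-1.08). LHCB4.3 was the 1 gene above 0 in roots (0.02), and its ratios of -0.69 in flowers and -0.68 in siliques were close to each other.

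In the photosystem I antenna, LHCA1 to LHCA4 had root ratios of -1.36 to -1.69 and silique ratios of -1.06 to -1.24. LHCA4 (AT3G47470) stood at 32.1 FPKM in clf-28 roots and 105 in wt roots, and at 1347 in clf-28 siliques and 3188 in wt siliques. In flowers it had 1904 FPKM in clf-28 and 1659 in wt (0.20). LHCA5 had the mildest root ratio of the family (-0.49), with 2.62 FPKM in clf-28 and 4.09 in wt. LHCA6 was under 1 FPKM in both root libraries and had 22.5 FPKM in clf-28 siliques and 77.2 in wt siliques (-1.74). There are 2 further rows named LHCA1 and LHCA2 that lie outside the RefSeq genes. They reach at most 0.371 and 0.821 FPKM and were not used.

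The photosystem I subunits ran closely together in roots, with log2 ratios of -1.48 to -0.91 over 12 genes. The 10 PSB genes did so too (-1.51 to -1.04), while the 14 LHCB genes ran from -2.41 to 0.02. PSAN (AT5G64040), which together with PSAF serves the docking of plastocyanin, had the lowest silique ratio of the family, with 395 FPKM in clf-28 and 1378 in wt (-1.80). It was also lower in clf-28 in the other organs, with 6.0 FPKM in clf-28 roots and 15.7 in wt roots (-1.26), 1858 in clf-28 leaves and 2682 in wt leaves (-0.53), and 498 in clf-28 flowers and 691 in wt flowers (-0.47). PSAO, a subunit near the site where the mobile antenna binds, had 572 FPKM in clf-28 siliques and 1946 in wt siliques (-1.76). PSAH1 had the mildest silique ratio, with 371 FPKM in clf-28 and 575 in wt (-0.63). PSAG, which holds the antenna belt to the core, had 4.91 FPKM in clf-28 roots and 15.5 in wt roots (-1.48). PSAD1, PSAK and PSAO were nearly equal to it in roots, each at -1.47, and these were the lowest root ratios of the family. Without the added 1, PSAK was the lowest, at 0.311 of wt. PSAD1 was then at 0.317, PSAG at 0.318 and PSAO at 0.330. PSAD1, which with PSAE1 forms the docking site of ferredoxin, had 473 FPKM in clf-28 siliques and 1093 in wt siliques (-1.21). PSAF had 715 FPKM in clf-28 siliques and 1795 in wt siliques (-1.33). In leaves PSAE2 alone in the family was not below 0, with 678 FPKM in clf-28 and 677 in wt.

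Of the photosystem II subunits, the oxygen-evolving proteins PSBO1, PSBO2, PSBP1, PSBQ1 and PSBQ2 had root ratios of -1.50 to -1.10. PSBO1 (AT5G66570) had 16.3 FPKM in clf-28 roots and 40.8 in wt roots (-1.28), and 759.8 in clf-28 siliques and 1537 in wt siliques (-1.02). PSBQ1 stood at 244 FPKM in clf-28 siliques and 773 in wt siliques (-1.66), the lowest of the family there. PSBR had 19.6 FPKM in clf-28 roots and 57.4 in wt roots (-1.51), and 924 in clf-28 siliques and 1676 in wt siliques (-0.86). Its root ratio was close to that of PSBQ2 (-1.50). Without the added 1, PSBQ2 was the lower, at 0.316 of wt against 0.341 for PSBR. PSBS (AT1G44575) had 419.8 FPKM in clf-28 siliques and 1044 in wt siliques (-1.31). The small membrane subunits PSBW, PSBX and PSBY had root ratios of -1.24, -1.04 and -1.22 and silique ratios of -1.36, -1.16 and -0.91. In leaves the family lay between -0.39 and 0.04, and PSBQ2 was the 1 gene above 0, with 2578 FPKM in clf-28 and 2511 in wt.

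Over the 4 organs, the mean log2 difference of clf-28 to wt was below 0 in 31 of 31 genes, but no gene passed the adjusted threshold. Of all 24078 loci, 12562 were below 0. The median was -0.69, against -0.01 for all loci, and the range was -1.09 (LHCB2.2) to -0.34 (PSAH1). In limma, with organ as a block, 0 of 31 genes were called lower or higher, where 0.0% of all 24078 loci were called in either direction. Adjusted p was 0.414 to 0.540. At an unadjusted p under 0.05 there were 16 lower, where 6.3% of all loci were, and 0 higher, where 5.49% were. PSAN at -1.01 (SE 0.27, unadjusted p = 0.0139 in limma), PSAH2 at -0.84 (SE 0.24, unadjusted p = 0.0171 in limma) and LHCA5 at -0.48 (SE 0.14, unadjusted p = 0.0178 in limma) had the smallest p. Without roots the median was -0.56, and without siliques -0.50, with 31 of 31 genes below 0 each time and 0 called. Of all loci, 49.95% were above 0 without roots and 46.8% without siliques. Each of these fits kept the other organ whose markers differed, and no fit left out both. They therefore do not show a difference apart from roots and siliques. In leaves alone the median log2 ratio was -0.26, with 29 of 31 genes below 0. In flowers alone it was -0.04, with 24 of 42 below 0. With flagged values set to missing, 42 of 42 genes were below 0, where 47.8% of all loci were above 0. The genes share libraries and are not replicates of the genotype.

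The balance between copies of a gene differed between organs in some families, with roots standing apart in PSAE, PSAH and LHCB4. In PSAE and PSAH the shares also differed between the genotypes, in the same direction in each organ. PSAE1 made up 37.2% of the sum of PSAE1 and PSAE2 in clf-28 roots and 38.1% in wt roots. It made up 68.4% in clf-28 leaves and 71.6% in wt leaves, and 66.7% in clf-28 flowers and 67.7% in wt flowers. In siliques it made up 65.6% in clf-28 and 73.0% in wt. The PSAE1 share was thus lower in clf-28 in each organ. PSAH1 made up 69.3% of its pair in clf-28 roots and 64.2% in wt roots, 46.6% in clf-28 leaves and 37.8% in wt leaves, 48.1% in clf-28 flowers and 40.4% in wt flowers, and 56.7% in clf-28 siliques and 41.3% in wt siliques. Its share was thus higher in clf-28 in each organ. LHCB4.1 made up 85.2% of LHCB4.1 and LHCB4.2 in clf-28 roots and 74.7% in wt roots, against 51.9% to 60.3% elsewhere. LHCB2.3 made up 22.4% of the LHCB2 sum in clf-28 roots and 6.79% in wt roots, and 10.7% to 15.2% elsewhere. PSAD1 made up 60.6% to 68.9% of its pair over the 8 libraries. PSBQ1 made up 35.2% of its pair in clf-28 roots and 31.5% in wt roots. In the other organs its share was lower in clf-28, with 28.5% in clf-28 leaves and 34.0% in wt leaves. It was 39.5% in clf-28 flowers and 41.9% in wt flowers, and 29.8% in clf-28 siliques and 37.5% in wt siliques. With 1 library per group no share was tested. PSAE1 and PSAE2 are 77.3% identical in coding sequence and PSAH1 and PSAH2 87.0%, with shared runs of 22 and 30 bases. The deposited loci of 15 of the 42 genes, namely LHCB1.3, LHCB1.5, LHCB2.3, LHCB3, LHCB4.2, LHCB6, LHCA4, LHCA5, PSAE1, PSAE2, PSAG, PSAH1, PSAH2, PSBP1 and PSBR, overlap another RefSeq gene, and the library kit does not mark strand, so reads of the other gene cannot be told apart from theirs where the transcripts overlap.

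**Figure D4:**
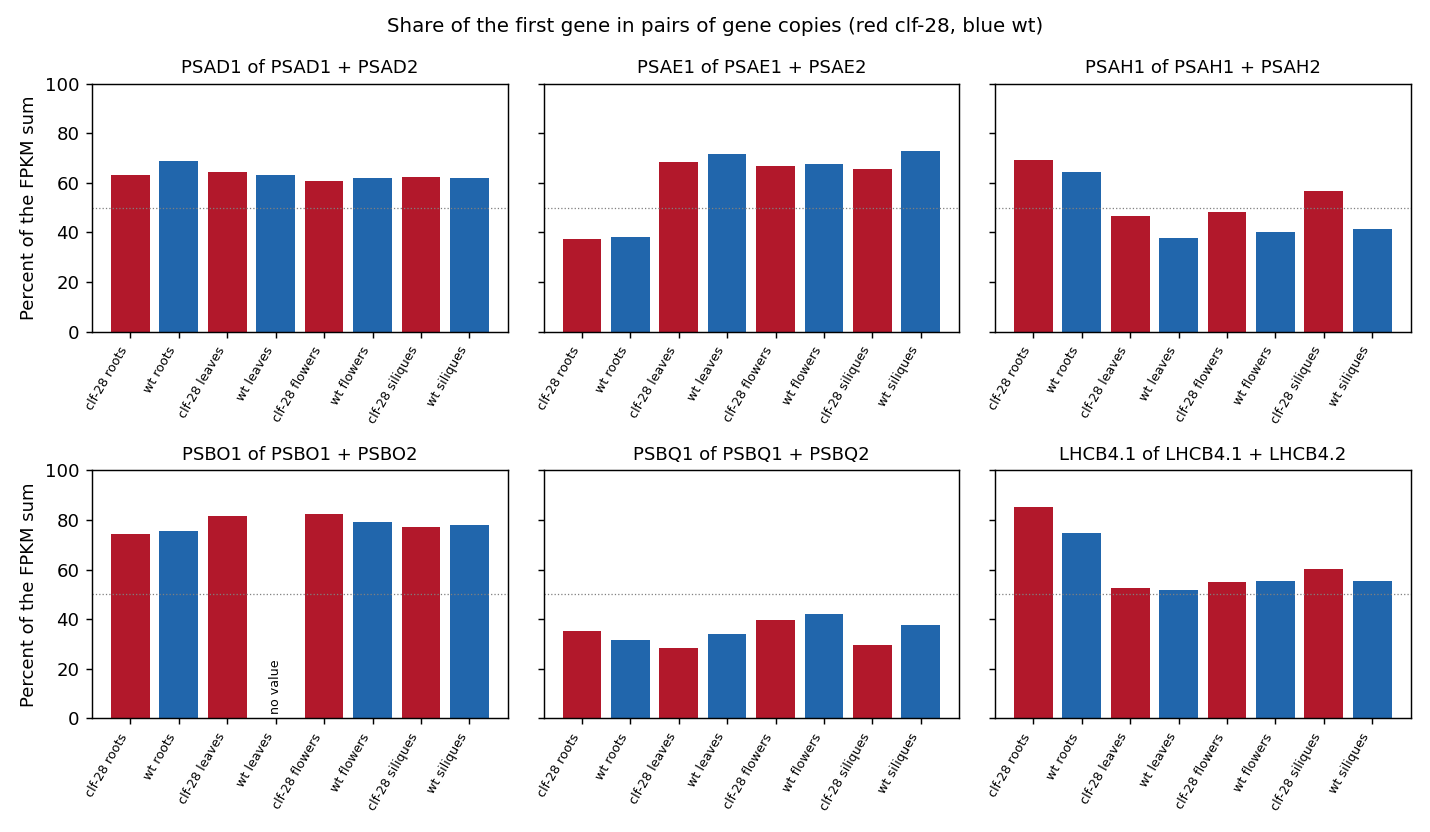
Percent of the FPKM sum of a pair of copies that belongs to the first gene, in 8 libraries (red clf-28, blue wt; dotted line at equal shares); wt leaves has no value for PSBO1. The bars of PSAE1 are lowest in roots and shorter in clf-28 than in wt in each organ. Those of PSAH1 are taller in clf-28 than in wt in each organ.

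Related genes of the same apparatus were mostly lower in clf-28 siliques too, and none passed the adjusted threshold over the organs. Of 14 chlorophyll synthesis genes, 0 were called over the organs in limma, with 5 lower and 0 higher at an unadjusted p under 0.05 (6.3% and 5.49% of all loci), and the median log2 difference was -0.43. In siliques 7 of 14 were at least 2-fold lower, where 8.0% of all loci were. CHLH, a magnesium chelatase subunit, stood at 136 FPKM in clf-28 siliques and 384 in wt siliques (log2 ratio -1.49), and CHLI1, another, at 89.2 in clf-28 siliques and 199 in wt siliques (-1.15). PORC, a protochlorophyllide reductase, had 39.3 FPKM in clf-28 siliques and 123 in wt siliques (-1.62). PORA, a reductase of etiolated seedlings, had 6.26 FPKM in clf-28 siliques and 9.02 in wt siliques (-0.46). In flowers and leaves it lay on the other side of 0, with 19.4 FPKM in clf-28 flowers and 3.63 in wt flowers (2.14) and 100.3 in clf-28 leaves and 52.2 in wt leaves (0.93). PORB, chosen after its values were seen, had 345 FPKM in clf-28 flowers and 60.8 in wt flowers (2.49), but 216 in clf-28 siliques and 428 in wt siliques (-0.99) and 5.43 in clf-28 roots and 10.8 in wt roots (-0.87).

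Of 9 genes of electron transport and ATP synthase, 0 were called in limma, with 6 lower and 0 higher at an unadjusted p under 0.05 (6.3% and 5.49% of all loci), and the median was -0.56. In siliques 5 of 9 were at least 2-fold lower, where 8.0% of all loci were, and in roots 3, where 1.22% were. FD2, the main leaf ferredoxin, stood at 477 FPKM in clf-28 siliques and 1467 in wt siliques (-1.62), and the plastocyanin gene PETE2 at 509 in clf-28 siliques and 1406 in wt siliques (-1.46). ATPD and ATPC1, subunits of the chloroplast ATP synthase, had ratios of -1.58 and -0.97 there. The 4 genes that deliver light-harvesting proteins to the thylakoid had a smaller median, at -0.21. In limma 0 of the 4 were called, and 0 had an unadjusted p under 0.05. Their silique ratios were -0.51 for cpSRP54, -0.86 for cpSRP43, -0.37 for ALB3 and -0.52 for cpFtsY. Of 3 genes for enzymes that add phosphate to thylakoid proteins or remove it, 0 were called in limma. STN7, the kinase of state transitions, had a difference of -0.47 (unadjusted p = 0.00643 in limma), STN8, a kinase of photosystem II proteins, of -0.09, and the phosphatase TAP38 of 0.11.

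Of 7 transcription regulators 0 were called in limma, with 2 lower and 0 higher at an unadjusted p under 0.05 (6.3% and 5.49% of all loci) and a median of -0.29. GLK1, an activator of light-harvesting and chlorophyll genes, stood at 63.9 FPKM in clf-28 leaves and 107 in wt leaves (-0.74), 9.26 in clf-28 flowers and 19.2 in wt flowers (-0.98), and 6.60 in clf-28 siliques and 13.3 in wt siliques (-0.91). It was under 1 FPKM in roots, and its difference over the organs was -0.74 (SE 0.14, unadjusted p = 0.00296, adjusted p = 0.414 in limma). GLK2 had 88.7 FPKM in clf-28 leaves and 151 in wt leaves (-0.76), and 17.9 in clf-28 flowers and 15.97 in wt flowers (0.16). GNC, a GATA factor of chloroplast development, had 9.79 FPKM in clf-28 leaves and 20.7 in wt leaves (-1.01). PIF1, which represses chlorophyll synthesis in the dark, had 15.9 in clf-28 leaves and 25.5 in wt leaves (-0.65). PIF3 and HY5, named after their values were seen, differed from these in leaves. PIF3 was higher in clf-28, with 24.8 FPKM in clf-28 leaves and 12.4 in wt leaves (0.95), and HY5 was near 0 (-0.10). In leaves the median of the 7 regulators (-0.74) lay below that of the light-harvesting and photosystem genes (-0.26), and in siliques above it (-0.08, against -1.24). Of the 2 early light-induced protein genes, which are close relatives of the antenna, 0 were called in limma. ELIP1 had 34.3 FPKM in clf-28 flowers and 72.6 in wt flowers, and 16.9 in clf-28 siliques and 40.5 in wt siliques. ELIP2 had 49.4 in clf-28 siliques and 23.3 in wt siliques (1.06).

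**Figure D5:**
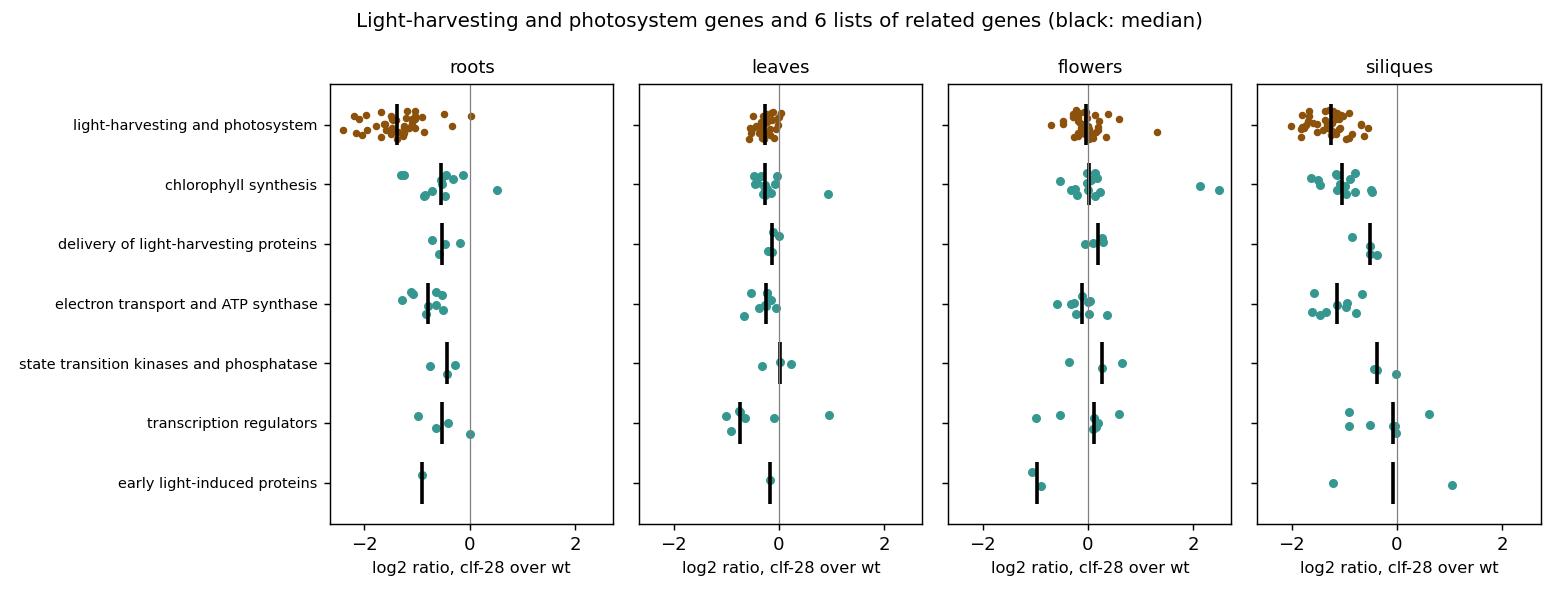
Log2 ratio of FPKM + 1, clf-28 over wt, for the light-harvesting and photosystem genes (brown) and for 6 lists of related genes (green), with medians (black), in each organ. In roots and siliques the medians of all 6 lists also lie below 0. In siliques those of the transcription regulators and early light-induced proteins are near 0, at -0.08 each. The 2 highest points in flowers are PORA and PORB.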

How the data were processed

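Per the labels' protocols, libraries were prepared with a TruSeq RNA kit (which does not mark strand) from column-purified, DNase-treated RNA and run on an Illumina HiSeq. Per the submitters' processing notes the authors used TopHat, Cufflinks and TAIR10. Versions are not given in the sources used here. The deposited table gives an FPKM, its lower and upper bound and a status per locus and library. The status, of unit other, is the authors' flag, and values other than usable were left out. FPKM values were used as deposited, as log2(FPKM + 1).

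The 42 genes were matched by locus name, and each overlapped its RefSeq gene. The members and lists were chosen with earlier results of these data known. Ratios within an organ carry no test. Organ and genotype were fitted with limma 3.58.1 (R 4.3.3, trend on) to 24078 loci usable in all 8 libraries with at least 1 FPKM in 1, leaving 3 residual degrees of freedom, with two-sided p adjusted by Benjamini-Hochberg over all loci (threshold 0.05). Every member may be named. Of each list of related genes up to 4 with the largest difference over organs are named, and exceptions are marked. Alternatives were other pseudocounts (0.1 and 5), no minimum FPKM, median ratio and quantile scaling, flagged values as missing, no trend, and single organs or libraries left out. Windows and coding sequences come from RefSeq TAIR10.1. Tables were made in Python 3.11.15.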

Additional observations from a re-analysis of the deposited data

Results flagged for a closer look

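LHCB1.4 moved in opposite directions between organs: its log2 ratio of clf-28 over wt was 1.32 in flowers and -1.96 in roots. Its copies LHCB1.1, LHCB1.3 and LHCB1.5 had opposite signs in these organs too, at 0.39, 0.60 and 0.35 in flowers and -1.77, -1.95 and -2.41 in roots. The result for LHCB1.4 rests on 1 library per genotype and organ, and the difference between the organs was not tested. Its coding sequence shares a run of 122 bases with LHCB1.5.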

How the results depend on the processing

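With flowers set against leaves, the count of genes called lower (28) was 12 with quantile scaling and 0 to 7 with single libraries left out, and the median (-1.93) was -1.25 with quantile scaling. With siliques against leaves, the count called lower (17) was 1 with no minimum FPKM, 27 with median ratio scaling, 3 with quantile scaling and 0 to 13 with single libraries left out. With siliques against flowers, the median (0.38) was 0.63 with median ratio scaling, 0.12 with quantile scaling and -0.0491 to 0.79 with single libraries left out, reversed without wt flowers (-0.0491), and the count called higher (0) was 0 to 2, with 2 without clf-28 siliques. Within organs, the count of genes 2-fold lower in clf-28 was 22 in roots with a pseudocount of 5 and 17 in siliques with quantile scaling. The median was -0.13 in leaves with quantile scaling, and in flowers -0.0621 with median ratio and -0.0053 with quantile scaling. The cause was not tested. The other 201 values kept their direction and stayed within 1.5 times. The genotype difference over organs stayed below 0 for every gene in all 11 alternatives, none of which left out roots and siliques together. Median ratio scaling moved the median of all loci from 0.29 to 0.02 in roots against leaves, 0.36 to 0.04 in flowers, 0.15 to 0.04 in siliques, and -0.18 to 0.01 in siliques against flowers. The split of all loci called higher and lower was then 5236 and 4554 in place of 8349 and 3568 in roots, 4339 and 3509 in place of 8330 and 2017 in flowers, 3973 and 3311 in place of 4765 and 2345 in siliques (2868 and 4016 with quantile scaling), and 1950 and 2507 in place of 1483 and 3979 in siliques against flowers. The genotypes were compared within organs, with organ as the block, and the labels give no replicate numbers for any other pairing. With 2 libraries per organ and the depth unknown, the errors rest on few values, and the most abundant antenna genes have no usable value in leaves.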
